A study of Mus musculus with 2 samples.

Results

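The cells described here were 264 hepatic stellate cells from CCl4-injured mice that held many transcripts of Acta2, the gene of smooth muscle alpha-actin. They were chosen by their own counts, in 1 single-cell RNA-sequencing library, from the barcodes with at least 2000 UMIs (molecular tags, 1 per captured transcript) of which at most 30% were mitochondrial. A cell was taken when its UMIs of the stellate cell genes Lrat, Reln, Colec11 and Rgs5 summed to at least 5 and its Acta2 UMIs numbered at least 10. It also had to hold at most 1 UMI of Myh11, the smooth muscle myosin heavy chain, at most 1 of the proliferation genes Mki67, Top2a and Cdk1 together, and at most 1 of the mesothelial genes Msln and Upk3b together. Of the 6573 cells of the injured library that passed the depth and mitochondrial limits, 4.02% (exact binomial 95% interval 3.55 to 4.52%) met the rule. They were 3.12% of the 8460 barcodes deposited for that library, which together with the healthy library made 14757 barcodes.

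The series held 2 libraries, each the only one of its group, so no test between conditions was possible and no p-value is given. Both came from Col1a2CreER:Rosa26tdTomato mice, in which a tamoxifen-dependent Cre under the Col1a2 promoter, active in collagen-producing cells, can switch on a red fluorescent reporter. The CCl4 animals, males and females aged 8 to 10 weeks at the start, received the hepatotoxin in corn oil intraperitoneally for 12 weeks, and the healthy library was made from uninjured liver. The labels do not say how many animals each library pooled, nor whether Cre was induced in them. Livers were digested with pronase and collagenase, the cells were enriched on a Nycodenz density gradient and depleted of CD45+ leukocytes with magnetic beads, and libraries were prepared with the 10x Genomics 3′ v2 chemistry. The shares of cell types therefore describe the recovered suspensions and not the liver. The libraries totalled 97611831 UMIs (CCl4) and 51122846 UMIs (healthy). They shared 10 cell barcodes, of which 1 belonged to an Acta2-high stellate cell.

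Hepatic stellate cells are the pericytes of the liver sinusoid. In healthy liver they store vitamin A as retinyl esters. On chronic injury they lose those stores, assemble alpha-actin stress fibres and secrete fibrillar collagen, and cells that have done so are called myofibroblasts. Acta2 is the customary mark of that state, and it is also a gene of vascular smooth muscle, which is why Myh11 was used to leave those cells out.

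No cell of the healthy library met the rule (0 of 5044 cells past the depth and mitochondrial limits, so that a share below 0.0595% could have gone unseen). In that library 145 cells passed the 4-gene stellate sum with fewer than 10 Acta2 UMIs. Of these, 108 held at least 5 UMIs of Rgs5, 19 held at least 5 of Lrat, Reln and Colec11 together, 20 held a UMI of the proteoglycan gene Dcn and 1 held a UMI of Acta2. Few of those 145 cells thus carried the stellate markers other than Rgs5, a pericyte gene that other mural cells also express, and they were not used as a healthy counterpart of the injured cells. Injury, library and the makeup of the suspension cannot be told apart between the 2 libraries, and all comparisons that follow are between cell classes of the CCl4 library. Because the members were picked by measured counts, these are descriptions. Levels are UMIs of a gene pooled over a class, scaled to a class total of 1000000 UMIs (CPM), and exact Poisson or binomial 95% intervals cover counting error only.

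The gate removed more Acta2-rich stellate-type cells than it kept. Of 3120 cells with a stellate sum of at least 5, 591 held at least 10 Acta2 UMIs. Among those, 263 exceeded the Myh11 limit, 86 the proliferation limit and 28 the mesothelial limit, with 48 cells failing 2 or more limits. The remaining 264 members had a median of 16349 UMIs (3893 to 48879), 4054 detected genes and 3.87% mitochondrial UMIs (1.71 to 28.6%). They held 4.71% of all UMIs of the library. The class nearest to them, the 2011 cells that met every other part of the rule with fewer than 10 Acta2 UMIs (called lower-Acta2 stellate cells), had a median of 13295 UMIs, and the members made up 11.6% (10.3 to 13.0%) of both classes together. The other classes compared were 587 endothelial cells (median 7117 UMIs), 1020 mesothelial cells (18466 UMIs), 399 immune cells (4896 UMIs) that remained after CD45 depletion, and 163 smooth muscle cells (18080 UMIs), each with at least 5 UMIs of its own markers. Endothelial, mesothelial and immune cells also had to hold a stellate sum under 5, which was not asked of smooth muscle cells.

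Markers that the rule did not use were present in unlike shares of members. The stellate genes Lhx2, Colec10 and Ngfr were found in 78.8%, 48.1% and 24.2% of members. In lower-Acta2 stellate cells the shares were 78.2%, 47.3% and 26.4%. Other markers were found in nearly all members. Cygb, the globin cytoglobin of stellate cells, was found in 100% of members, and Pdgfrb, the receptor for platelet-derived growth factor B, in 97.7%. Hand2 and Des, a mesenchymal transcription factor and the intermediate filament desmin, were each found in 97.3%. Immune cells, which should lack these genes, held a Hand2 UMI in 6.52% and a Des UMI in 3.76% of cells, at their lower median depth of 4896 UMIs. Cygb, Pdgfrb, Hand2 and Des mark mesenchymal cells more broadly. At 2000 UMIs per cell, Hand2 was found in 49.5% of members, 37.3% of the 520 portal-type fibroblasts and 44.0% of smooth muscle cells. Reln, which the rule used, was found in 58.3%, 4.65% and 42.0% of the same classes. Portal-type fibroblasts were defined with a stellate sum under 5, so their low Reln share was set in part by that limit. Of the rule's own markers, Colec11, which encodes a secreted collectin, was found in 98.5% of members, Reln, the matrix protein reelin, in 93.6%, Lrat, the enzyme that esterifies retinol for storage, in 84.1% and Rgs5 in 67.0%. In immune cells the same genes were found in 7.52%, 7.52%, 4.26% and 5.26% of cells. When each cell was thinned to 2000 UMIs, Lrat was found in 35.5% of members and 1.99% of immune cells. Immune cells had to hold a stellate sum under 5, so their low shares of these genes were set in part by definition. All 4 markers were present together in 160 members and at least 3 in 223. The 87 members with no Rgs5 UMI passed through the other genes, and 263 of the 264 would have passed on Lrat, Reln and Colec11 alone.

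Markers of other cell types were low, with a few exceptions. The summed level of 13 endothelial markers was 173 CPM in the members against 9606 CPM in endothelial cells, that of 12 immune markers was 97.5 against 24972 CPM in immune cells, and that of 9 mesothelial markers was 72.5 against 3550 CPM in mesothelial cells. Hepatocyte markers summed to 78.1 CPM in members, and cholangiocyte markers to 38.7 CPM in members and 27.1 CPM in the lower-Acta2 class. The defining genes Pecam1 (endothelium), Ptprc (CD45) and Msln (mesothelium) stood at 11.3, 2.39 and 1.09 CPM. The rule itself limited Msln and Upk3b in members, and both are in the mesothelial list. The low Msln level and mesothelial sum were therefore set in part by the choice of cells. Single cells departed from these low levels. At least 5 UMIs of the endothelial genes Pecam1, Cdh5, Kdr, Egfl7 and Ptprb together were held by 11 members. At least 5 of the immune genes Ptprc, Laptm5, Coro1a and Cd52 together were held by 3 members, which made 14 members with either. Of the 489 cells of the library with the highest Scrublet doublet scores, called doublet-marked here, 23 were members. A list of 10 portal fibroblast markers summed to 1322 CPM in members, 1467 CPM in the lower-Acta2 class and 2355 CPM in portal-type fibroblasts. Of Dpt, Clec3b, Entpd2 and Mfap4, the genes that chose the portal-type class, 168 members held at least 5 UMIs together. Portal fibroblast genes thus did not separate the classes sharply.

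Acta2 formed a continuum with no gap at the limit. Members held 10 to 176 Acta2 UMIs, with a median of 21 and quartiles of 13 and 34. Per 10000 UMIs this was 3.14 to 80.5 with a median of 13.0. Among stellate-gated cells, 30 held 8 Acta2 UMIs, 23 held 9, 29 held 10 and 11 held 11. The 53 cells just outside the limit (8 or 9 UMIs) had 1550 CPM of Tagln and 99.7 CPM of Timp1, and the 40 cells just inside (10 or 11 UMIs) had 2009 and 137 CPM. At the other limit, the 12 cells with a stellate sum of 4 had 166 CPM of Colec11 and 829 CPM of Dpt, a dermatopontin gene typical of portal fibroblasts, and the 8 members with a sum of 5 had 173 and 828 CPM. Colec11 is part of that sum, so its like level on both sides was set in part by the choice of cells. The 264 cells are therefore a range cut from a continuous distribution of Acta2 counts, and no clustering was made.

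**Figure D1:**
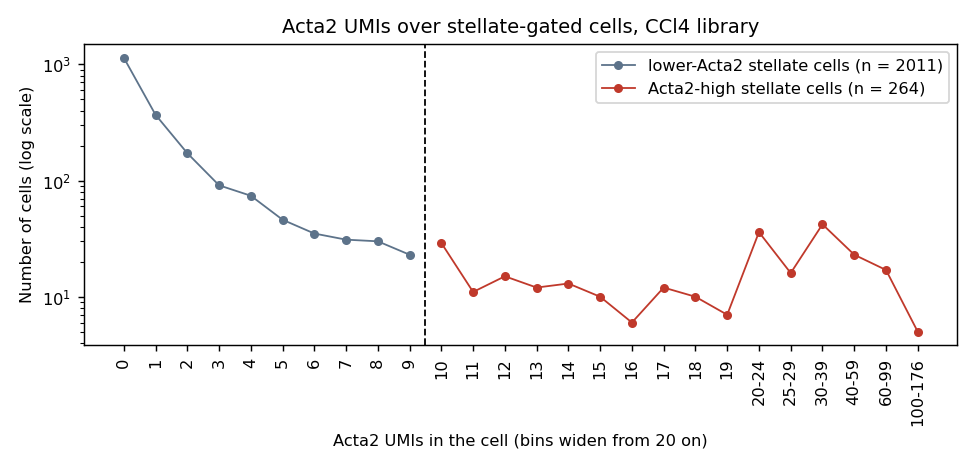
Number of stellate-gated cells of the CCl4 library (log axis) against their Acta2 UMIs, with bins that widen from 20 on and a dashed line at the limit of 10. Counts run on without a gap across the limit, from 30 cells at 8 UMIs and 23 at 9 to 29 at 10 and 11 at 11.

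Against endothelial, mesothelial and immune cells, the members stood out by contractile, collagen and stellate genes together. Tagln, the actin-binding transgelin, stood at 2982 CPM in members, 94.9 in endothelial, 59.1 in mesothelial and 44.0 in immune cells, so it was 31.4-fold (28.5 to 34.7) above the highest of the 3. Myl9, the regulatory light chain of smooth muscle myosin, was at 441 CPM and 26.9-fold (24.0 to 30.3) above its next highest level, in mesothelial cells. Postn, the matricellular protein periostin, was at 486 CPM against 15.1 in endothelial cells (32.3-fold, 25.4 to 41.7). All 3 were low in these 3 classes, though not in smooth muscle cells, and are known from activated fibroblasts or smooth muscle.

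Transcription factors and receptors of stellate cells were among the 20 genes with the highest ratio over the 3 other classes. Tcf21, a basic helix-loop-helix factor of mesenchymal progenitors, stood at 349 CPM against 11.3 in immune cells (30.8-fold, 21.0 to 47.4). Lhx2, a LIM homeobox factor known to restrain stellate activation, was at 139 CPM against 4.36 (31.8-fold, 17.2 to 66.7). Nr1h4, the bile acid receptor FXR, was at 121 CPM against 6.39 in mesothelial cells (15.7 to 23.2-fold). All 3 are nuclear regulators that stellate cells are known to carry.

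At the cell surface, Ednra, the endothelin receptor type A that drives contraction, was at 105 CPM against 3.05 in immune cells (34.6-fold, 16.6 to 86.4). Bco1, the enzyme that splits beta-carotene into retinal, was at 102 CPM against 2.88 in endothelial cells (35.5-fold, 20.6 to 67.2). Among secreted factors, Cxcl12, the ligand of CXCR4, was at 1885 CPM against 91.8 in endothelial cells (20.5-fold, 18.6 to 22.7), and Bmp5, a bone morphogenetic protein, was at 165 CPM against 6.10 in immune cells (27.0-fold, 16.0 to 49.7). Others of the 20 were Epha3, Ccdc68, Ms4a4d, Robo2, Pde1a, Sparcl1, Islr, Ccdc3 and Tmem56, with Epha3 at 128 CPM and Robo2, a receptor of Slit guidance cues, at 367 CPM. Of the 20, Tagln and Myl9 were at least 2-fold above the lower-Acta2 stellate class, while Tmem56 and Ednra were below it at 0.539 and 0.716 times.

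By gene list, all 13 fibrillar and associated collagens were at least 2-fold higher than in endothelial cells, where 16.6% of the 7280 genes compared (those at 20 CPM or more in either class) were. Of the 23 contraction genes compared, 13 were, with a median log2 ratio of 1.43 against -0.29 over all genes. Col1a1 and Col3a1, the chains of the 2 main fibrillar collagens, were at 4939 and 8663 CPM in members against 256 and 370 CPM in endothelial cells. Endothelial cells had more of the transforming growth factor gene Tgfb1 (358 CPM against 50.7), of the bone morphogenetic protein gene Bmp2 (1004 against 48.8) and of Eng, a TGF-beta co-receptor (906 against 364). Nid1, a basement membrane linker, was level between the 2 classes at 358 and 351 CPM (ratio 1.02, 0.952 to 1.09). Hgf, a growth factor for hepatocytes, was 3.48-fold (3.14 to 3.86) higher in members.

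Over mesothelial cells, 11.9% of 6769 genes were at least 2-fold higher, with 9 of 13 collagens, 12 of 23 contraction genes, and 14 of 16 stellate identity genes outside the rule. Dcn was 1.73-fold (1.71 to 1.75) higher, at 8001 against 4633 CPM. Lox, the collagen-crosslinking lysyl oxidase, was level at 165 and 162 CPM, and Fn1, fibronectin, at 670 and 691 CPM. Timp1, the inhibitor of matrix metalloproteinases, was lower in members (290 CPM) than in mesothelial cells (646 CPM, ratio 0.450, 0.425 to 0.476). Of 9 complement and acute phase genes, 7 were at least 2-fold lower in members, as were 12.9% of all genes compared, and none was 2-fold higher. C3 stood at 153 against 9661 CPM and Saa3 at 208 against 21649 CPM.

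Over immune cells, 22.3% of 7217 genes were at least 2-fold higher, and so were all 13 collagens, all 13 basement membrane genes, all 13 crosslinking and processing genes and 18 of 23 contraction genes. Col1a1 was 17.2-fold (15.9 to 18.6) higher and Myl9 29.8-fold (21.3 to 43.2). The collagen level in immune and endothelial cells was not 0. At 2000 UMIs per cell, 27.2% of immune and 22.4% of endothelial cells held a Col1a1 UMI, against 98.4% of members, and how far RNA freed from lysed cells entered those shares was not tested.

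**Figure D2:**
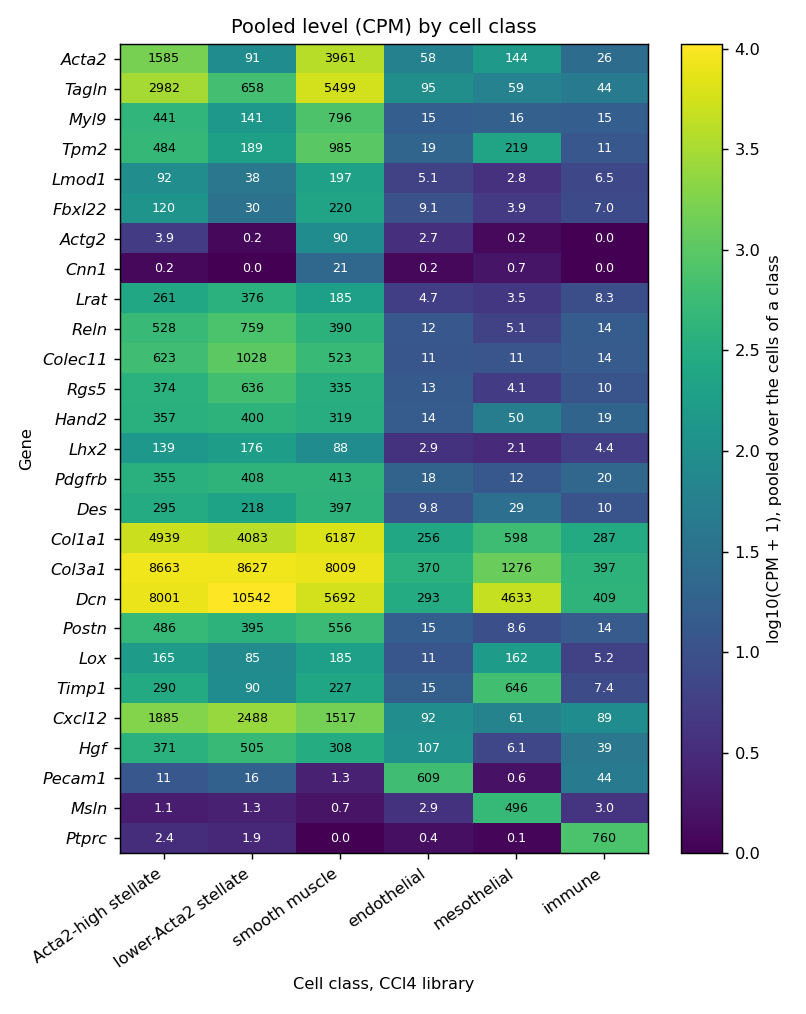
Pooled level in CPM (numbers in the cells) of 27 genes in 6 cell classes of the CCl4 library, with colour on a log10(CPM + 1) scale. The contractile genes are highest in smooth muscle cells and next in Acta2-high stellate cells (Tagln 5499 and 2982 CPM). Pecam1, Msln and Ptprc each mark 1 other class and were among the genes that chose it.

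The lower-Acta2 stellate class differs from the members by the Acta2 limit alone, and few genes stood far apart between the 2. Of 6131 genes compared, 23 (0.375%) were at least 2-fold higher in the members, Acta2 itself included, and 15 (0.245%) at least 2-fold lower. No p-value attaches to these counts, as Acta2 chose the cells and its contrast is the same one. The contraction list, Acta2 and Myh11 left out, held 5 of the 23 genes in its 23 compared members and had none that was 2-fold lower, with a median log2 ratio of 0.62 against -0.05 over all genes.

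The 5 were genes of the contractile apparatus that bind or regulate actin and myosin. Tagln was 4.53-fold higher (4.43 to 4.63; 2982 against 658 CPM), Myl9 3.13-fold (2.96 to 3.30), Tpm2, the beta-tropomyosin, 2.56-fold (2.44 to 2.70), Lmod1, the smooth muscle leiomodin that nucleates actin filaments, 2.14 to 2.69-fold (92.3 against 38.4 CPM) and Myl6, the essential myosin light chain, 2.04-fold (1.99 to 2.08). Tagln per 10000 UMIs ranged from 2.16 to 125 over single members with a median of 25.6, and from 0 to 71.4 with a median of 3.78 over lower-Acta2 cells, of which 2.83% reached the members' median. The 2 classes thus overlapped in Tagln, although their medians were far apart. Members were also sequenced more deeply, so shares of cells with a UMI were compared at 2000 UMIs, where Tagln was found in 95.5% of members and 53.8% of lower-Acta2 cells.

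The other genes of the contraction list differed less. Actb and Actg1, the cytoplasmic actins, were each 1.86-fold higher, Tpm1 1.86-fold, Cnn2, a calponin of non-muscle cells, 1.93-fold (1.79 to 2.08), and Flna, the actin crosslinker filamin A, 1.84-fold (1.75 to 1.95). Des was 1.35-fold higher (1.27 to 1.44). Mylk, the kinase that phosphorylates the myosin light chain, was level at 901 and 874 CPM (ratio 1.03, 0.997 to 1.07), and Cald1, caldesmon, was 1.15-fold higher (1.11 to 1.18). Outside the list, Fbxl22, an F-box protein known from heart muscle, was 3.96-fold higher (3.55 to 4.42), and Tnnt2, a troponin best known from heart muscle, 2.62-fold (2.29 to 2.99). The actins, Tpm1, Cnn2 and Flna thus lay within 1.84 to 1.93-fold of the lower-Acta2 level, above Cald1 and Mylk.

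Promoters of some contractile genes and of Fbxl22 are shown because many genes of this kind carry the CArG box, the binding sequence of serum response factor. The box is 2 C bases, 6 bases that are A or T, and 2 G bases, the same on both strands. The windows are the 250 bases before the transcription start in RefSeq's GRCm38.p6 annotation, read 5′ to 3′ on the gene's strand. They lie at chr19:34255374-34255623 for Acta2 on the minus strand, chr2:156775214-156775463 for Myl9 on the plus strand, chr10:128493010-128493259 for Myl6 on the minus strand, chr10:79988350-79988599 for Cnn2 on the plus strand and chr9:66514594-66514843 for Fbxl22 on the minus strand. Capitals mark a CArG box, exact or with 1 other base among the inner 6. Only windows that held such a box are shown.
Acta2: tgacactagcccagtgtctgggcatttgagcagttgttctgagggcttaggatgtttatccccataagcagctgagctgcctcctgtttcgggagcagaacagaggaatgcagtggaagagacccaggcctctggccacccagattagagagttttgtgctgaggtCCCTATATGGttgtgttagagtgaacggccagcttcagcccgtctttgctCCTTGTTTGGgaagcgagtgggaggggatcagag
Myl9: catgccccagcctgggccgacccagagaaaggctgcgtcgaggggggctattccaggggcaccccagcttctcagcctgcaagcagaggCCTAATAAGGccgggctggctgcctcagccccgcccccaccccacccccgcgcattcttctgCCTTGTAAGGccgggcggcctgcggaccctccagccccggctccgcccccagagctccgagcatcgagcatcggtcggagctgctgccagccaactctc
Myl6: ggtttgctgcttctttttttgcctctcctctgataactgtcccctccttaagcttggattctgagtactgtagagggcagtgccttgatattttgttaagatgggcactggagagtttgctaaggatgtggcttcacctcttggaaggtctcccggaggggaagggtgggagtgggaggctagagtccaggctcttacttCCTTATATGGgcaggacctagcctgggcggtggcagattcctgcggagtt
Cnn2: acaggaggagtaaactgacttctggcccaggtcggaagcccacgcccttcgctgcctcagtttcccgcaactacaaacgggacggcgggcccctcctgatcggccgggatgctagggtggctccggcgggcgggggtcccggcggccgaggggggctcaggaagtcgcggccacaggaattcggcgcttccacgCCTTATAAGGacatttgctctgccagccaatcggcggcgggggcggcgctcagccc
Fbxl22: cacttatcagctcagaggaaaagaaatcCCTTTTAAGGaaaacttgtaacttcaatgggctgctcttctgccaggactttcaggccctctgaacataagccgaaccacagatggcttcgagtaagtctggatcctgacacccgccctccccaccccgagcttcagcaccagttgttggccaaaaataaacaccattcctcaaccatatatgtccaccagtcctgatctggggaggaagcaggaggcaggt

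The exact box began 161 bases before the start in Myl9, 50 in Myl6, 56 in Cnn2 and 222 in Fbxl22. Acta2 had none in this window and held 2 boxes with 1 mismatch, 84 and 34 bases before its start, and Myl9 had a further one of that kind at 99. Vcl, vinculin of focal adhesions, Fhl2, a LIM-domain cofactor, and Actg1 also held an exact box in their windows. In all, 6 of the 23 contraction genes matched to the table (28 in the list) held an exact box, or 26.1%, against 439 of 27025 gene symbols (1.62%). Boxes with 1 mismatch occurred in 8.70% of the list and 8.33% of all symbols. Tagln and Actb were not matched. A match is a description of letters. Of genes with the box, Myl9, Fbxl22 and Myl6 were at least 2-fold higher in the members, whereas Vcl and Fhl2 were 1.54-fold (1.44 to 1.64) and 1.30-fold (1.23 to 1.38) higher. Transcripts of Srf, the factor's own gene, stood at 10.2 CPM in members and 6.52 CPM in the lower-Acta2 class, both too low to enter the comparison.

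Matrix genes differed little between the 2 stellate classes, and not in one direction. Of 13 collagens none was 2-fold higher or lower, with a median log2 ratio of 0.13. Col3a1 was level at 8663 and 8627 CPM (interval of the ratio 0.994 to 1.02), and Col1a1 was 1.21-fold higher (1.19 to 1.23). Col8a1 and Col12a1, a network-forming and a fibril-associated collagen, were 1.86-fold (1.68 to 2.06) and 1.84-fold (1.65 to 2.05) higher. The small proteoglycans were lower, with Dcn at 0.759 times (0.751 to 0.767) and Bgn, biglycan, at 0.893 times (0.877 to 0.909). Col3a1 transcript was thus about as abundant in stellate cells with little Acta2 as in those with much.

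Of 13 collagen crosslinking and processing genes none was 2-fold higher or lower (median log2 ratio 0.21), and of 10 proteases and inhibitors 1 was higher (median -0.05), which was Timp1. Among single genes of these and other matrix lists, Lox was 1.95-fold higher (1.80 to 2.12), Tnc, tenascin C, 1.59-fold (1.43 to 1.77), Ccn2, the connective tissue growth factor, 1.46-fold (1.36 to 1.57) and Serpinh1, the collagen chaperone, 1.26-fold (1.23 to 1.30). Mmp2, gelatinase A, was lower at 0.638 times (0.601 to 0.677), and so was Pdgfra, a PDGF receptor more typical of fibroblasts, at 0.677 times (0.629 to 0.727). Timp1 was 3.23-fold higher (3.02 to 3.46), yet 364 of its 1334 UMIs lay in 1 cell, and without that cell the ratio was 2.37. Inhba, the activin A subunit, was 2.44-fold higher with the same cell and 1.03-fold without it.

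That cell held 41843 UMIs, 18 of Acta2 and 106 of the 4 stellate genes, and was marked as a doublet. It contributed 132 of the 148 Serpinb2 UMIs (89.2%) and 177 of the 305 Inhba UMIs (58.0%), while no other member held more than 4 Inhba UMIs. Of the 23 genes at least 2-fold higher, Cxcl13 and Spp1 likewise drew 84.2% and 58.9% of their member UMIs from 1 cell, and Fbln2 drew 30.1%. In the remaining genes of the 23, Timp1, Inhba and Serpinb2 apart, no cell held more than 13.0% of the UMIs. They included S100a6, a calcium-binding protein, at 1264 against 583 CPM (2.17-fold, 2.10 to 2.23), Capg, an actin filament capping protein (2.06-fold), Vegfd, a lymphatic growth factor (2.14-fold), Fkbp11, a secretory pathway isomerase (2.31-fold), S100a4, a relative of S100a6 (2.28-fold), Tubb2a, a beta-tubulin (2.15-fold), Cdh3, P-cadherin (2.09-fold), and Cxcl14, a chemokine (2.03-fold). Cthrc1, a gene of collagen-producing fibroblasts in scarred tissue, was 2.82-fold higher, on 92 member UMIs.

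Genes of the resting stellate cell were lower in the members. Of 16 stellate identity and pericyte genes outside the rule, 1 was at least 2-fold lower and none higher, with a median log2 ratio of -0.42, and over 22 transcription factors the median was -0.24. Angptl6, a secreted angiopoietin-like protein, was at 0.445 times (0.384 to 0.513), Abcc9, the sulfonylurea receptor of pericyte potassium channels, at 0.533 times (0.501 to 0.567) and Vipr1, the receptor for vasoactive intestinal peptide, at 0.548 times (0.488 to 0.614). The rule's own stellate genes, which each member could pass with few UMIs, were lower too, with Rgs5 at 0.588, Colec11 at 0.606, Lrat at 0.694 and Reln at 0.696 times. Hand2 was closer to level at 0.894 times (0.848 to 0.942).

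Few signalling genes reached 2-fold in either direction. Hgf was at 0.735 times (0.699 to 0.774), Cxcl12 at 0.758 times (0.741 to 0.775), Ednra at 0.716 times (0.650 to 0.787) and the TGF-beta receptor genes Tgfbr1 and Tgfbr2 at 0.675 (0.570 to 0.796) and 0.747 times (0.668 to 0.832). Tgfb1 itself was level at 50.7 and 52.7 CPM. The medians were -0.20 for PDGF and TGF-beta signalling, -0.23 for growth factors and ligands and 0.15 for YAP targets and matricellular genes, and in those lists 1 gene, Inhba, was 2-fold higher and none 2-fold lower. Chemokines and cytokines had 2 of 12 genes higher and a median of 0.12. Cdkn1a, the cell cycle inhibitor p21, was at 0.398 times (0.311 to 0.503). Hba-a1 and Hbb-bs, the haemoglobin genes of red cells, were at 0.0794 and 0.0866 times and summed with 3 other erythroid genes to 13.5 CPM in members and 162 CPM in lower-Acta2 cells. Without the lower-Acta2 cell richest in each gene, these 2 ratios were 0.428 and 0.431.

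**Figure D3:**
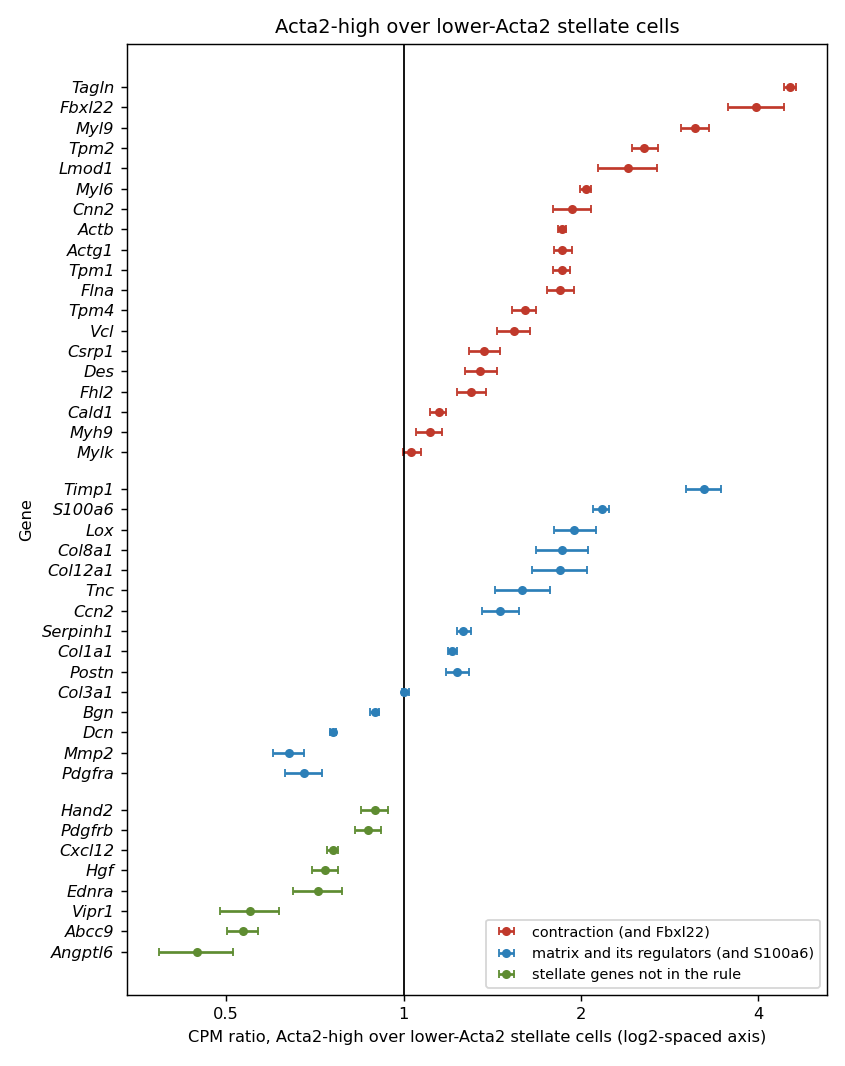
Ratio of CPM in 264 Acta2-high over 2011 lower-Acta2 stellate cells on a log2-spaced axis, for contraction genes, matrix genes and stellate genes not in the rule. Points are ratios and bars exact 95% intervals for counting error. The contraction genes lie right of 1 up to Tagln at 4.53, Col3a1 sits at 1, and the stellate genes lie left of 1 down to Angptl6 at 0.445.

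Over finer steps of Acta2, running through both stellate classes, the 4 contraction-linked genes followed were higher at each step than at the one before. Tagln was at 422 CPM in the 1141 cells with no Acta2 UMI, 748 in the 631 cells with 1 to 3, 1344 in the 239 cells with 4 to 9, 2006 in the 125 cells with 10 to 19, 3196 in the 94 cells with 20 to 39 and 4813 in the 45 cells with 40 to 176. Fbxl22 went from 21.8 to 203 CPM, Myl9 from 105 to 639 and Tpm2 from 160 to 689 over the same steps. Cells with no Acta2 UMI still held Tagln, so low Acta2 did not mean no contractile transcript.

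Col1a1 went only from 3781 to 5211 CPM over those 6 steps. Dcn went down from 10938 to 6194 CPM, Colec11 from 1115 to 381, Rgs5 from 722 to 219 and Abcc9 from 494 to 153. S100a6 went from 450 to 1639 CPM. Timp1 stood at 71.9, 100, 133, 342, 248 and 250 CPM, its highest step being the one that held the single Timp1-rich cell. The median UMI number also went from 12559 to 18673 over the steps, and its part in these levels was not tested.

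**Figure D4:**
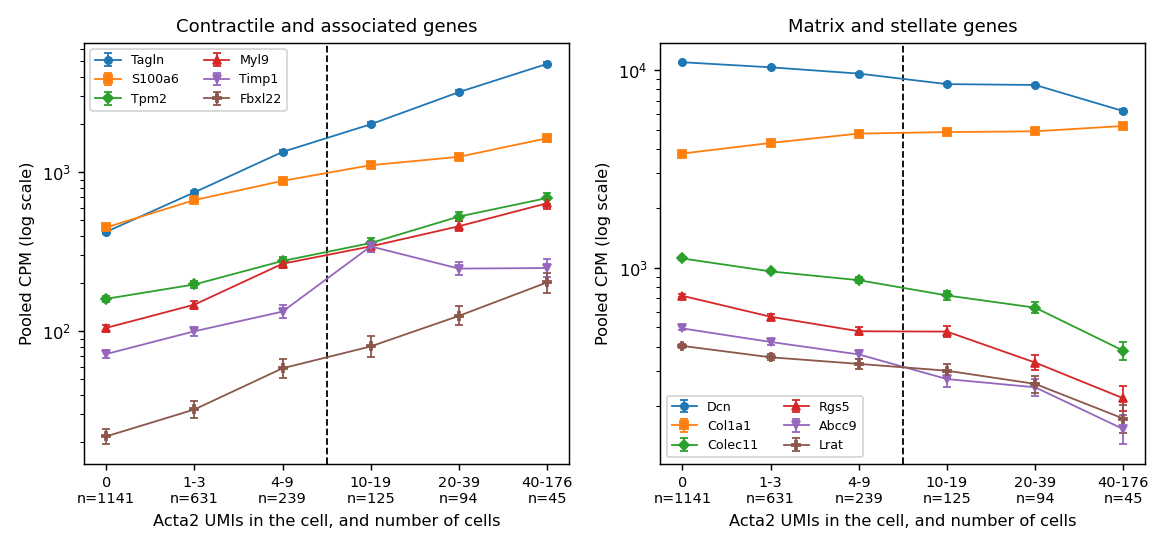
Pooled CPM (log axis) of 6 contractile or associated genes and 6 matrix or stellate genes over stellate-gated cells binned by Acta2 UMIs, with exact 95% Poisson intervals and a dashed line at the limit of 10. Tagln goes from 422 to 4813 CPM and Colec11 from 1115 to 381 CPM, both in the same direction at every step.

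To set depth aside, the members were split into 4 groups of ascending Acta2 within bands of similar total UMIs, which gave 64, 66, 64 and 70 cells with median UMIs of 16308, 16362, 16395 and 16325. Acta2 stood at 681, 1029, 1503 and 3039 CPM. Between the top and the bottom group 212 of 6177 genes (3.43%) were at least 1.5-fold higher and 649 (10.5%) at least 1.5-fold lower. A gene at the minimum of 20 CPM had only 22.7 UMIs in the bottom group, so ratios of low genes carry wide counting intervals.

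Contractile genes were ordered with Acta2 inside the member class as well. Of 23 contraction genes, 6 were at least 1.5-fold higher and none 1.5-fold lower, with a median log2 ratio of 0.41 against -0.08 over all genes. Tagln stood at 1920, 2237, 3198 and 4481 CPM over the 4 groups (2.33-fold, 2.22 to 2.45). Fbxl22 was 2.62-fold higher (2.05 to 3.39), Tpm2 2.06-fold (1.82 to 2.33), Myl9 1.78-fold (1.57 to 2.02) and Myl6 1.57-fold (1.49 to 1.66). Hmox1, the heme oxygenase, had the largest ratio of the named genes at 2.80-fold, on 71 against 24 UMIs (1.74 to 4.65). It stood at 21.1, 30.2, 38.1 and 59.1 CPM over the 4 groups. Without the member richest in Hmox1 the ratio was 2.23, and its Spearman's rho with Acta2 over members was only 0.09. Dclk1, a microtubule-associated kinase (2.27-fold, 1.55 to 3.37), Tubb6, a beta-tubulin (2.23-fold, on 85 against 36 UMIs), and Capg (1.96-fold, 1.47 to 2.64) were also higher, as was Isyna1, an inositol phosphate synthase (1.77-fold).

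Among the named genes lower in the top group, stellate genes of the rule were lower, with Rgs5 at 314 against 594 UMIs (0.435 to 0.574 times), Lrat at 0.577 (0.488 to 0.682) and Colec11 at 0.779 times (0.697 to 0.870), and so was Vipr1 at 0.469 times (0.332 to 0.655). These kept their direction without the cells that held endothelial or immune markers and without doublet-marked cells. Other values depended on a few cells that held endothelial or immune markers. Kdr and Aqp1, which endothelial cells express, were at 0.0584 and 0.0604 times with all members and at 0.523 times each, on at most 4 UMIs a group, without the marker-holding cells. Lyz2, the macrophage lysozyme, went from 0.324 to 1.25 times (0.717 to 2.19). Cd74, an antigen presentation gene, had 66 UMIs in the bottom and none in the top group, and 6 and none without those cells. Over the 4 groups, the endothelial genes Pecam1, Cdh5, Kdr, Egfl7 and Ptprb summed to 226, 162, 81.5 and 54.9 CPM. The immune genes Ptprc, Laptm5, Coro1a and Cd52 summed to 33.4, 5.32, 29.2 and 1.66 CPM.

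Single rich cells set other values of that contrast. Serpinb2 had 132 UMIs in the bottom group, all in the Timp1-rich cell, and none in the top. Inhba was at 0.178 times (0.123 to 0.252) with that cell and at 1.41 times (0.814 to 2.46) without doublet-marked cells, and Timp1 went from 0.604 times (0.525 to 0.694) to 2.12 times (1.74 to 2.61). Saa3 went from 0.312 times (0.235 to 0.411) to 0.908 times (0.640 to 1.28). Apold1, Akap12 and Cxcl10 were at 0.245, 0.260 and 0.328 times and stayed below 1 without marker-holding cells, at 0.378, 0.405 and 0.569 times. Of 18 immediate early and heat shock genes, 4 were at least 1.5-fold lower in the top group, against 10.5% of all genes, and the list's median log2 ratio of -0.33 became 0.02 when members needed at least 20 Acta2 UMIs. Egr1 stood at 1026, 890, 800 and 679 CPM and Jun at 1419, 1367, 1216 and 1074 CPM, while Fos had no such order (1405, 1161, 1411 and 1086 CPM). Gm42418, a gene overlapping ribosomal RNA and a sign of that RNA in a library, was at 51653, 44858, 40680 and 44875 CPM over the 4 groups.

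Over the 264 members, Spearman's rho with Acta2 per 10000 UMIs was 0.55 for Tagln, 0.52 for Tpm2, 0.51 for Myl6, 0.41 for Myl9, 0.32 for Actb and 0.28 each for Flna and Fbxl22. Over the 2844 genes with at least 50 CPM the median was -0.02. The lowest values were -0.26 for Egr1, -0.25 for Erbin and -0.25 for Zfas1. Lgals1 and Ppia had 0.26, and Atp5d, Cd151 and Ndufa4 0.25. The cells shared 1 library, so these are descriptions across cells with no p. The share of Acta2 itself had a rho of -0.22 with total UMIs. A cell with fewer UMIs needed a larger share to reach 10, and how far this set that rho was not tested. Of the 12 genes most like Acta2, 3 of 9 with a matched promoter held an exact CArG box (33.3%), against 1.62% of all gene symbols. They were Myl9, Myl6 and Fbxl22, whose boxes are given above, so this is no separate finding.

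Among members, the genes with the most variance beyond Poisson sampling were not contractile ones. This measure also rises with a gene's level, and spread relative to level was not ranked. Variance of the counts over that of Poisson sampling, with each cell's depth taken into account, had a median of 1.23 over genes. It was 262 for Gm42418 and 106 for Malat1, both nuclear or ribosomal transcripts, 95.9 for Saa3, 35.8 for Col3a1, 31.5 for Dcn, 23.8 for Tagln, 19.7 for Rgs5, 19.3 for Alcam and 18.5 for Fos. Of the 956 Saa3 UMIs, 490 lay in 1 cell of 48879 UMIs, the deepest member and marked as a doublet. Col3a1 per 10000 UMIs had 10th and 90th percentiles of 31.7 and 145, and Tagln of 9.10 and 54.9. Tagln had a rho of -0.16 with Col3a1 and -0.15 with Col1a1, and Acta2 had one of 0.02 with each collagen. Whether collagen and contractile genes varied together was not tested.

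A further direction of variation ran from Rgs5 to Alcam, the cell adhesion molecule CD166, and was chosen after its values were seen. Rgs5 and Alcam had a rho of -0.55 over members and -0.64 over the 2011 lower-Acta2 cells. Rgs5 went with Dcn (0.57), Colec11 (0.51), Lrat (0.50) and Reln (0.49), the last 3 being genes whose sum with Rgs5 chose the cells. With Acta2 and Tagln it had a rho of -0.11 and 0.02, and Alcam with Acta2 one of -0.07. These rank correlations with Acta2 were weak, although Rgs5 was lower in the top than in the bottom Acta2 group as given above.

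Split into 4 groups by Alcam within bands of depth, the members ran from 122 to 2258 CPM of Alcam. Rgs5 went down from 709 to 471, 275 and 75.2 CPM, Postn from 665 to 260 and Colec11 from 796 to 374. Acta2 stayed at 1648, 1617, 1474 and 1602 CPM and Col1a1 at 4614, 4704, 5515 and 4915 CPM. Dpt, which portal-type fibroblasts also express, went from 319 to 733 CPM, Gas6, a ligand of the TAM receptors, from 108 to 308, and Tcf21 from 279 to 464 CPM. Alcam made these groups and Rgs5 was picked for its correlation with it, so their opposed order is no finding.

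Smooth muscle cells, defined by Myh11, were the class that exceeded the members in contractile transcripts. Acta2 stood at 3961 CPM in them and 1585 in members, and Tagln at 5499 and 2982 CPM. Actg2, the gamma-actin of visceral smooth muscle, was at 89.9 against 3.92 CPM and Cnn1, the calponin of differentiated smooth muscle, at 21.2 against 0.218 CPM, on 65 UMIs against 1. Of the 163 cells, 128 also passed the stellate sum, and their pooled Lrat, Reln, Colec11 and Rgs5 levels were 185, 390, 523 and 335 CPM, against 261, 528, 623 and 374 CPM in the members. Col1a1 was 6187 CPM in smooth muscle and 4939 CPM in members. Of 6110 genes compared between the 2 classes, 15 were at least 2-fold higher and 54 at least 2-fold lower in members. The median log2 ratio was 0.08 for stellate identity and pericyte genes and -0.13 for collagens. The name smooth muscle thus rests on the Myh11 limit, and most genes did not separate this class from the members.

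To show that limit, all stellate-gated cells with at least 10 Acta2 UMIs that met the other limits were binned by Myh11, a description chosen after values were seen. The 173 cells with 0 and the 91 with 1 Myh11 UMI are the members, and after them come 107 cells with 2 or 3, 70 with 4 to 9 and 41 with 10 to 80. Acta2 went over these steps from 1421 to 1861, 2345, 2952 and 6232 CPM, and Tagln from 2691 to 8197 CPM. Actg2 went from 2.77 to 5.85, 10.9, 33.8 and 210 CPM. Cnn1 appeared late, with 1, 0, 0, 3 and 53 UMIs, and the last was 61.0 CPM. Notch3, a receptor of mural cells, was at 30.2, 28.1, 31.7 and 33.8 CPM over the first 4 steps and 88.7 CPM in the last.

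Stellate genes differed little over the same steps up to the last. Lrat was at 271, 243, 286, 240 and 242 CPM and Hand2 at 363, 349, 358, 331 and 253 CPM. Lhx2 was at 144, 130, 131, 120 and 81.8 CPM and Colec11 at 660, 560, 676, 627 and 431 CPM, both lowest in the last step. All these cells had passed the stellate sum, which fixes Lrat and Colec11 in part, while Hand2 and Lhx2 were not in the rule. Cnn1 and Actg2 were highest in the step with 10 or more Myh11 UMIs.

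**Figure D5:**
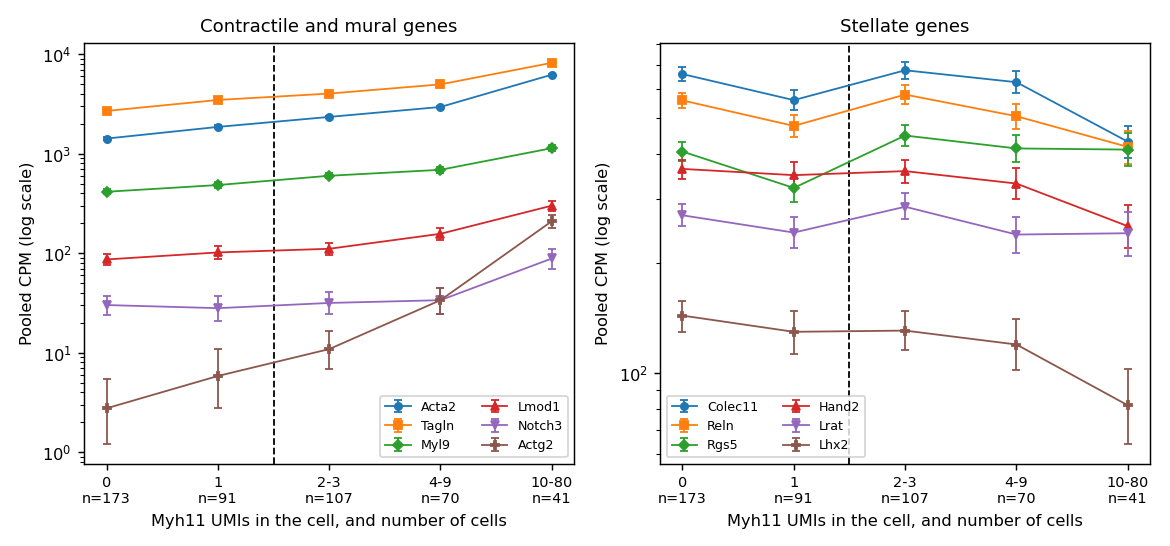
Pooled CPM (log axis) of 6 contractile or mural and 6 stellate genes over stellate-gated cells with at least 10 Acta2 UMIs, binned by Myh11 UMIs, with exact 95% Poisson intervals and a dashed line between members and cells left out. Actg2 goes from 2.77 to 210 CPM, whereas Lrat stays between 240 and 286 CPM.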

How the data were processed

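Cells of whole liver were profiled in 2 libraries, 1 healthy and 1 CCl4. The authors deposited UMI counts per gene and barcode, not normalized, as 10x matrices. Per the file headers, Cell Ranger 3.1.0 made the healthy and 6.0.1 the CCl4 matrix. The submitters' processing notes list both GRCh38, a human build, and mm10, a mouse build, and the study's methods name GRCh38, so the build of these matrices was not settled. Gene identifiers are mouse Ensembl. Totals were 51122846 and 97611831 UMIs, and no per-sample column was left unused.

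Cells with at least 2000 UMIs and at most 30% mitochondrial UMIs (13 genes) were kept. Members were chosen by the rule stated in the text, with 11 genes. The members and gene lists were chosen with earlier results of these data known. Counts were summed per class and divided by the class total (CPM). Genes with at least 20 CPM in either class were compared. A ratio against fewer than 3 counts was computed at 3. Intervals are exact Poisson, conditional binomial or Clopper-Pearson at 95%. They cover counting error only, and no test between samples was possible with 1 library per group. Thinned shares used 2000 UMIs per cell. Doublets were scored with Scrublet (scanpy 1.11.5) in the 7820 CCl4 barcodes within the mitochondrial limit, and the 489 highest scores (0.8% per 1000 cells) were marked and kept in the main values. Python 3.11.15, numpy 2.4.6, scipy 1.17.1, pandas 2.3.3 and matplotlib 3.10.9 were used. The ratio step was tested on simulated data.

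Named genes were, per list, up to 6 with the highest member CPM and any with a ratio of at least 4, the 20 with the highest ratio over the other 3 classes at 100 CPM or more, the 10 most raised and lowered in each stellate contrast at 50 CPM or more, and the 12 most correlated with Acta2. Other genes were named after their values were seen. Results for some genes are not reported here.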

Additional observations from a re-analysis of the deposited data

How the results depend on the processing

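With 1 library per group no replicate could be left out, and depth limits every low gene. No paired analysis was possible because each group had 1 library. The number of members was 139 when at least 20 Acta2 UMIs were required. Without the 20 CPM minimum, 2740 genes were at least 2-fold higher than in endothelial cells, 2404 than in mesothelial, 3017 than in immune and 555 than in lower-Acta2 stellate cells, and 918 and 2015 genes were higher and lower in the top than in the bottom of the 4 Acta2 groups. That count of higher genes was 555 with at least 20 Acta2 UMIs and 335 without the 50 most abundant genes. Of 65 counts, 56 were within 1.5 times and 9 were not. Of 680 list medians 43 moved and 3 reversed, of 221 single gene ratios 51 moved and 6 reversed, and of 21 shares of cells 19 moved on thinning. Against the bottom Acta2 group, with at least 20 Acta2 UMIs, the median log2 ratio became 0.04 for matrix proteases and inhibitors (from -0.29), 0.02 for complement (from -0.16) and 0.02 for immediate early genes (from -0.33). Over lower-Acta2 cells, Inhba had a log2 ratio of -0.31 (from 1.29) with that limit. Against the bottom Acta2 group, Timp1 went from -0.73 to 0.41 with at least 20 Acta2 UMIs, 1.09 without doublet-marked cells and 0.02 with each cell weighing the same, and Inhba from -2.49 to 0.83 and 0.49 under the first 2 of those settings. The cell rich in Timp1 and Inhba was marked as a doublet and had 18 Acta2 UMIs, so both settings left it out. Leaving out marker-holding cells, or the cell richest in a gene, was chosen after seeing the data.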
